A study of Homo sapiens with 4 samples.

Results

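The interferon response genes are a list of 31 named genes that cells switch on, or use, when they sense viral nucleic acid or receive interferon. They were taken by symbol from 25685 genes and unnamed accessions in the deposited tables, after each RefSeq accession had been given its gene symbol (RIGI was formerly DDX58). A gene's level was the sum of the FPKM of its transcripts, that is fragments per kilobase of transcript relative to all mapped fragments of a library. All 31 were found, with 1 transcript for 19 genes and several for the other 12. Of the 31, 20 passed the filter on low values (in 2 or more libraries an FPKM of 1 or more), 9 had low values, and CCL5 and IFI27 were listed at 0 throughout.

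The 4 libraries held RNA that stayed on streptavidin beads, from DU-145 cells, an established androgen-independent line of human prostate cancer. Control replicates 1 and 2 came from cells given an untagged duplex of miR-26a. Biotin replicates 1 and 2 came from cells given 2 miR-26a duplexes together, each tagged with biotin at its 3′ end and carrying a thiouridine, at nucleotide 7 in the first and nucleotide 17 in the second. Where values are paired below, replicate 1 comes before replicate 2, and the tag is the biotin. Every culture was thus given a miR-26a duplex, at 60 nM with lipofectamine, 24 h after seeding, and was irradiated at 365 nm with 2 J/cm2 on the following day. Biotin and thiouridine came together and cannot be told apart, and no library of untransfected cells was used here. The series design names 2 biological replicates per group, and the numbers 1 and 2 are those of the labels.

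Interferons act through receptors on the cell surface. Type I and type III interferons signal through the kinases JAK1 and TYK2 to a complex called ISGF3, which holds STAT2 and IRF9. This complex binds the interferon-stimulated response element in promoters and switches on a broad set of antiviral genes. Cells also start the pathway from within, when the sensors RIGI and IFIH1 meet double-stranded RNA and signal through MAVS to interferon regulatory factors, which switch on IFNB1 and some of the same antiviral genes directly. Transfected RNA duplexes can act as such a stimulus in some cell lines, as background and not as a result of these data.

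Estimated from coverage and FPKM, depth was 16030000 and 17830000 mapped reads (control replicates 1 and 2) and 17560000 and 23640000 (biotin replicates 1 and 2), so replicate 1 was the shallower library in each group. On a 1 kb transcript, 3 reads are worth 0.187, 0.168, 0.171 and 0.127 FPKM in these libraries, a floor that covers counting error alone. Of 12 epithelial genes listed for DU-145, 11 passed the filter and KRT5 was at 0. Of 16 blood and immune genes 10 were at 0, PTPRC among them, while CD14 and CD68 passed the filter. A value of a bulk pull-out cannot tell apart more cells responding, more RNA per responding cell, and better recovery on the beads.

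The promoters show what many of these genes share in sequence. In RefSeq (GRCh38.p14), 24 of the 31 had an entry in the promoter table, which spans 250 bases before to 50 after a gene's start. The core of the interferon-stimulated response element, searched on both strands as GAAA followed after any 2 bases by another GAAA, was present in 16 of these 24 (66.7%), against 996 of all 27305 promoters (3.65%). It was also in 23 of 43 promoters of further interferon-stimulated genes (53.5%), in 9 of 16 of antigen presentation genes (56.2%), and in 0 of 16 of NF-kB target genes. The windows below are shown because these 6 genes carry the element and stand for the main classes of effector described next. Each is 30 bases on the strand of the gene, with the matching core in capitals, and IFIT1 carries it on the opposite strand, read as its complement.
ISG15 (chr1:1013374-1013403, plus strand): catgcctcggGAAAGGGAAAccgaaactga
IFIT1 (chr10:89392497-89392526, plus strand): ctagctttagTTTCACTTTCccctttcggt
IFI6 (chr1:27672288-27672317, minus strand): ggagagagggGAAAATGAAActgcagagtg
OAS3 (chr12:112938321-112938350, plus strand): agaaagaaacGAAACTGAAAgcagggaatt
EIF2AK2 (chr2:37156967-37156996, minus strand): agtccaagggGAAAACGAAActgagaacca
MX1 (chr21:41420559-41420588, plus strand): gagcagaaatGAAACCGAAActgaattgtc

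Most cores lay within the stretch before the start, as the map of element positions shows, while that of MX1 lay at positions 12 to 21 after the RefSeq start. The RefSeq start of MX1 lies upstream of the start of MX1 in the deposited tables (chr21:41426031-41459214, hg38). The core of the gamma-activated site, TTCNNNGAA, an element of the response to interferon gamma, matched in 7 of the 24 promoters (29.2%: CXCL11, IRF1, IFNB1, OAS1, IRF9, IFI27 and BST2) and in 2152 of all promoters (7.88%). These matches describe letters in a window and show no binding.

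**Figure D1:**
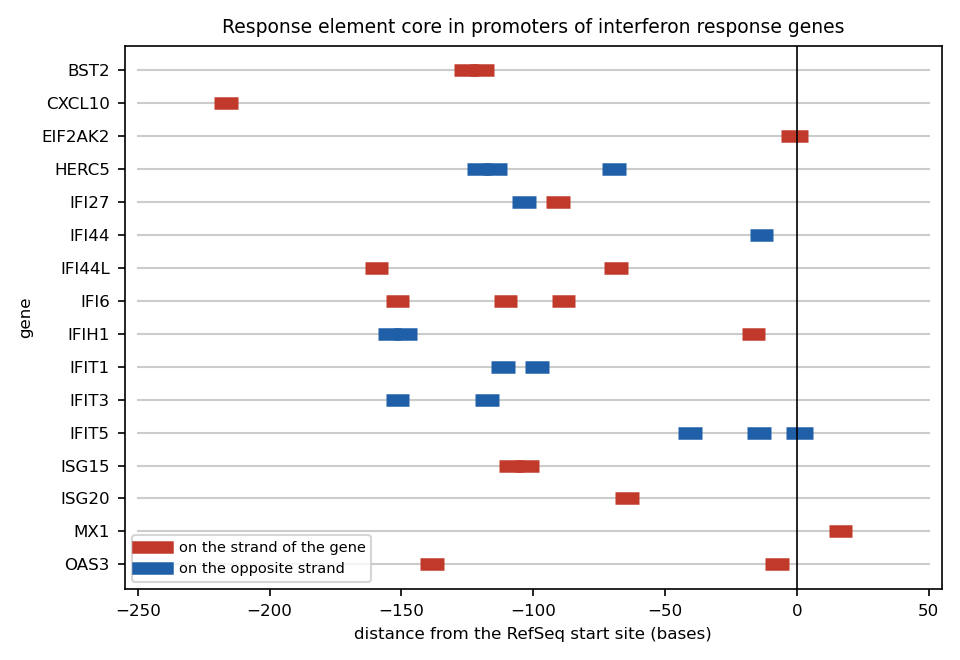
Positions of the interferon-stimulated response element core in the 16 promoters that hold it; the x axis is the distance in bases from the RefSeq start site and each row is a gene, with matches on the strand of the gene in red and on the opposite strand in blue. In all but MX1 every match starts before the start site, and CXCL10 has the most distant.

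Most of the genes were higher in both libraries numbered 1. Of the 20 genes that passed the filter, 19 were higher in replicate 1 than in replicate 2 in both groups, against 20.4% of the 9940 genes tested, and IRF1 was the exception. The median difference of the 20, replicate 1 minus replicate 2 on the log2(FPKM + 1) scale, was 0.90 in the control and 0.94 in the biotin libraries, against -0.08 and 0.01 over all tested genes. Between biotin and control libraries 0 of the 20 passed the test, against 22.5% of the 9940 genes tested. That test had no term for the replicate number, so the replicate difference stayed in its residual spread. With the replicate number as a block, IRF9 and OAS2 were called higher and IFIT1, IFIT5, MX1 and IFI44 lower, as given below. The plot of member levels shows the replicate difference as dark symbols to the right of pale ones.

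**Figure D2:**
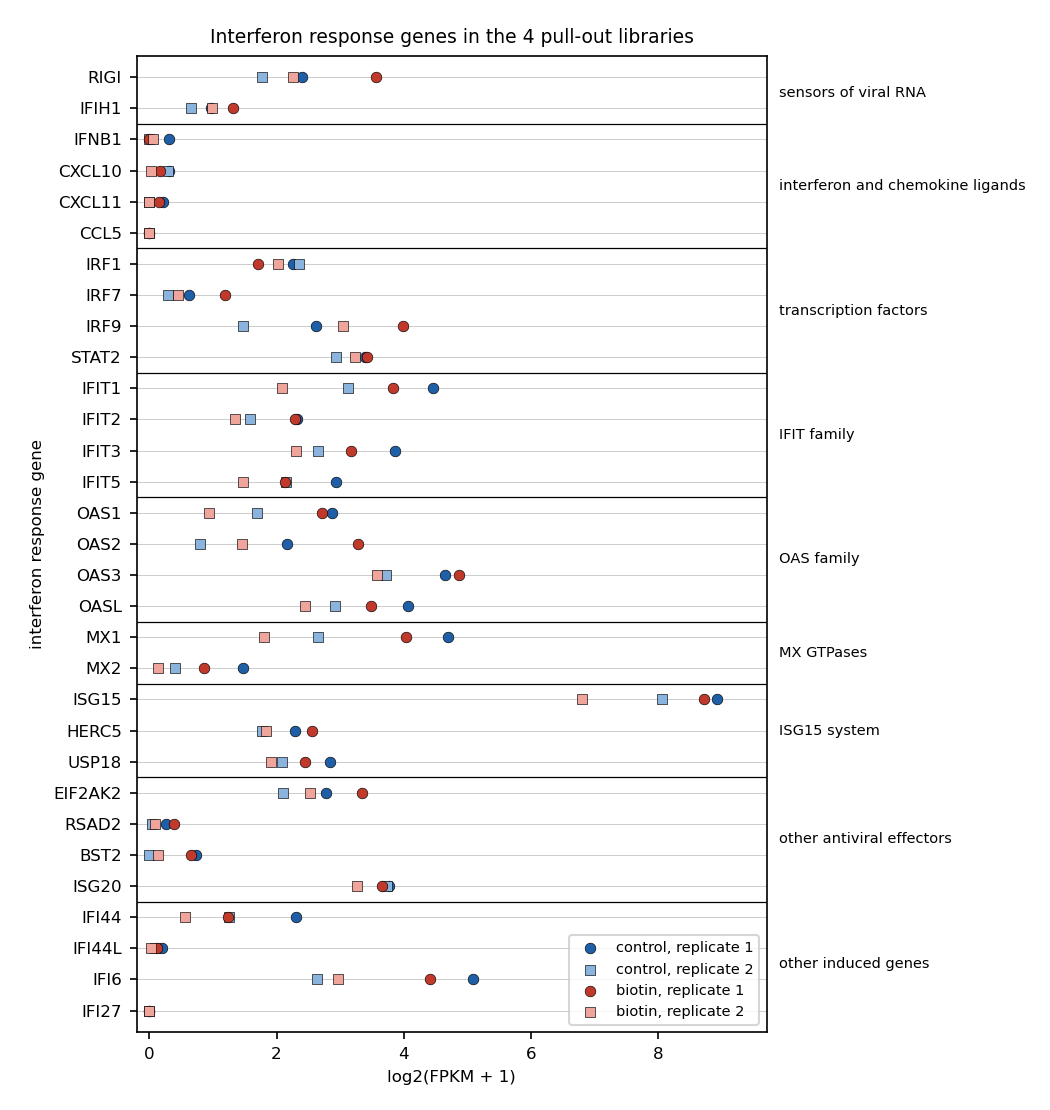
Level of each of the 31 genes in the 4 libraries, as log2(FPKM + 1) on the x axis, grouped by role; blue is control, red is biotin, dark circles are replicate 1 and pale squares replicate 2. ISG15 stands highest, and for 15 of the 20 genes that passed the filter both circles lie to the right of both squares.

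Of the sensors of viral RNA, RIGI, a helicase that binds the ends of double-stranded RNA (chr9:32455302-32526324, hg38), was at 4.28 and 2.41 FPKM in control replicates 1 and 2 and at 10.8 and 3.76 in biotin replicates 1 and 2. Biotin replicate 1 was the highest, and the other 3 libraries lay between 2.41 and 4.28. The replicate difference of RIGI was 0.97 ± 0.21 (SE) on the log2 scale. IFIH1, the sensor of long double-stranded RNA also called MDA5, was at 0.970 and 0.584 without the tag and 1.48 and 0.975 with it and did not pass the filter. Its replicate 1 value was 1.66 times that of replicate 2 in the control and 1.52 times in the biotin group.

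Of the 4 ligands among the members, 3 had signal, all of it at low levels. IFNB1, interferon beta, was at 0.236 FPKM in control replicate 1, just above the 0.223 that 3 reads would give there, at 0.0393 in biotin replicate 2 and at 0 in the other 2 libraries. CXCL10, a chemokine that attracts T cells, was at 0.244 and 0.226 without the tag and 0.119 and 0.0237 with it. The related CXCL11 was at 0.166 and 0.113 in the replicate 1 libraries and at 0 in both replicate 2 libraries, where 3 reads would have given 0.105 (control) and 0.0793 (biotin). CCL5, another chemokine, was listed at 0 in all 4 libraries, on the chromosome and on an alternate sequence of the build. As genes with alternate rows are often listed at 0, this was not read as absence. CXCL10 and CXCL11 overlap the RefSeq span of ART3.

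The transcription factors differed from each other in direction. IRF9, the DNA-binding subunit of ISGF3 (chr14:24161213-24166566), was at 5.13 and 1.78 FPKM without the tag and 14.9 and 7.28 with it. Both biotin values lay above both control values, and replicate 1 was also higher in each group. Biotin minus control was 1.48 ± 0.44 (SE) and did not pass (limma, adjusted p = 0.059), while 22.5% of all tested genes did. IRF9 did pass among the 4549 genes with a mean of at least 5 FPKM (limma, adjusted p = 0.0353). The share of those 4549 genes that passed is not reported here. Replicate 1 minus replicate 2 was 1.04 ± 0.15. STAT2, another subunit of the complex (chr12:56341598-56360253), was at 9.46 and 6.68 without the tag and 9.72 and 8.41 with it, so its groups overlapped. A second STAT2 transcript carried 4.34 FPKM in biotin replicate 2 and 0 elsewhere, and with the main transcript alone biotin minus control turned from 0.16 to -0.28.

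IRF1, a factor induced by interferon gamma and by NF-kB (chr5:132481609-132490773), was the only tested member with the higher level in replicate 2 of both groups. Its values were 3.78 and 4.10 FPKM without the tag and 2.29 and 3.07 with it. Both biotin values lay below both controls. Biotin minus control was -0.43 ± 0.16 (limma, adjusted p = 0.101). IRF7, the factor that amplifies type I interferon production, was at 0.546, 0.231, 1.28 and 0.368 in the order control 1, control 2, biotin 1, biotin 2, and did not pass the filter. All of its signal was listed on an alternate sequence of chromosome 11, with 0 on the chromosome itself. Such splits are common in these tables, since the rows on the chromosome were at 0 in 872 of 1019 genes that also have alternate rows (85.6%), against 33.1% of genes with rows on chromosomes only.

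The IFIT genes encode proteins that bind foreign RNA ends and block translation, and they lie near each other on chromosome 10, where each overlaps the RefSeq span of LIPA. Reads shared with an overlapping gene, or by near-identical stretches of the IFIT, OAS or MX genes, could have been given to either gene, since the sources used here do not give the strand and counting settings. IFIT1 (chr10:89392546-89406487), whose element is printed above, was at 20.9 and 7.67 FPKM without the tag and 13.2 and 3.24 with it. IFIT3 was at 13.5 and 5.31 against 8.02 and 3.94, and IFIT5 at 6.64 and 3.43 against 3.38 and 1.78. In each of the 3 genes both replicate 1 libraries were above the replicate 2 library of their own group. IFIT2 was at 4.01 and 1.99 without the tag and 3.87 and 1.53 with it, so its 2 replicate 1 values nearly coincided. The replicate difference was 1.54 ± 0.18 for IFIT1, 1.03 ± 0.17 for IFIT3, 0.84 ± 0.14 for IFIT2 and 0.72 ± 0.13 for IFIT5. All 4 were lower with biotin in both same-numbered comparisons, IFIT5 without overlap of the groups (-0.74 ± 0.32, limma adjusted p = 0.144).

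The OAS genes encode synthetases that, on binding double-stranded RNA, make the signal that activates RNase L. OASL is a relative without that activity that supports RIGI signalling. OAS1, OAS3 and OAS2 lie next to each other on chromosome 12 and OASL further along it. OAS3 (chr12:112938444-112973249), the longest, was at 24.1 and 12.2 FPKM without the tag and 28.2 and 10.97 with it. OAS2 was at 3.51 and 0.740 against 8.67 and 1.75, and OAS1 at 6.35 and 2.24 against 5.59 and 0.914. OASL was at 15.7 and 6.55 without the tag and 10.2 and 4.46 with it. In each OAS gene both replicate 1 libraries were above both replicate 2 libraries. The replicate difference ran from 1.09 ± 0.15 (OASL) to 1.59 ± 0.17 (OAS2). Biotin minus control differed in sign within the family, at 0.88 ± 0.66 for OAS2, 0.04 ± 0.48 for OAS3, -0.46 ± 0.62 for OAS1 and -0.52 ± 0.46 for OASL, and the value for OAS3 turned to -0.05 with upper-quartile scaling.

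The MX genes encode dynamin-like GTPases that trap viral particles. MX1, which had the largest replicate difference of the 20 tested members, was at 24.8 and 5.29 FPKM without the tag and 15.3 and 2.50 with it. Replicate 1 was 4.69 times replicate 2 in the control and 6.13 times in the biotin group. The difference of 2.13 ± 0.16 was rank 4 of the 9940 genes tested, with an unadjusted p of 8.04e-05 and an adjusted p of 0.400 in limma. MX2, its neighbour on chromosome 21 (chr21:41362023-41408942), was at 1.78 and 0.320 without the tag and 0.818 and 0.1004 with it, which did not pass the filter. The ratio of replicate 1 to replicate 2 was 5.57 in the control and 8.14 in the biotin group, beside the 4.69 and 6.13 of MX1.

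ISG15 encodes a ubiquitin-like protein that is conjugated to others, HERC5 the ligase that attaches it, and USP18 the protease that removes it and restrains the receptor. ISG15 (chr1:1013467-1014539) was the highest of the 31, at 484 and 265 FPKM without the tag and 422 and 111 with it. Biotin replicate 2 stood apart below the other 3, and the replicate difference was 0.87 in the control and 1.92 in the biotin group. HERC5 was at 3.87 and 2.43 without the tag and 4.86 and 2.58 with it. USP18 was at 6.13 and 3.25 against 4.43 and 2.75. Both had smaller replicate differences than ISG15, 0.61 ± 0.14 for HERC5 and 0.64 ± 0.14 for USP18, against 1.39 ± 0.33, and these differences between genes were not tested. ISG15 supplied most of the summed FPKM of the 31 genes, which was 697 and 355 without the tag and 613 and 192 with it.

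Among the other antiviral effectors, EIF2AK2, the kinase PKR that stops translation on binding double-stranded RNA (chr2:37105141-37157047), was at 5.83 and 3.31 FPKM without the tag and 9.12 and 4.74 with it. It overlaps GPATCH11. Its replicate difference was 0.74 ± 0.14 and biotin minus control 0.49 ± 0.33. ISG20, an exonuclease, was nearly flat, at 12.6 and 12.3 without the tag and 11.6 and 8.61 with it, with a replicate difference of 0.21 ± 0.18. RSAD2 (viperin), which makes a chain-terminating nucleotide, was at 0.196 and 0.0298 against 0.310 and 0.0608, with control replicate 2 below the level of 3 reads. BST2 (tetherin), which holds budding virus at the membrane, was at 0.660 and 0 against 0.571 and 0.0959. Replicate 1 was the higher for both in each group, at levels too low for the filter.

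Of the other induced genes, IFI6, a mitochondrial and endoplasmic reticulum protein with 3 response element cores in its promoter (chr1:27666061-27672213), was at 33.0 and 5.25 FPKM without the tag and 20.3 and 6.79 with it. Its replicate difference of 1.95 ± 0.28 was rank 5 of all tested genes. IFI44 was at 3.96 and 1.37 without the tag and 1.35 and 0.469 with it. Both biotin values of IFI44 lay below both controls, by -0.89 ± 0.38 (limma, adjusted p = 0.142), the lowest biotin minus control value of the 20 genes. Its neighbour IFI44L had signal in all 4 libraries but at low levels, 0.147 and 0.0629 without the tag and 0.0862 and 0.0232 with it. IFI27, listed at 0 in all 4, has rows on the chromosome and on an alternate sequence, so the listed 0 was not read as absence.

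The comparison of replicate numbers asks whether libraries with the same number shared a level of these genes. In limma, with the group as a term, 0 of the 20 genes passed at an adjusted p of 0.05, as did 0 of all 9940 (0%) in either direction. At an unadjusted p of 0.05, 17 of the 20 were higher in replicate 1, against 227 of 9940 genes (2.28%), and none of the 20 was higher in replicate 2, against 2.03% of genes. The 3 without such a p were IRF1, STAT2 and ISG20. With the residual spread resting on 1 degree of freedom plus a prior of 3.5, adjusted p over the 20 ran from 0.400 (MX1) to 0.907. The exact permutation test of 2 libraries against 2 cannot go below 0.333.

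Both replicate 1 libraries were above both replicate 2 libraries in 15 of the 20, against 6.91% of tested genes. A difference of at least 2-fold in FPKM + 1 within both groups was found in 16 of 9940 genes (0.161%), and 6 of these 16 were interferon response genes, namely MX1, IFI6, OAS2, IFIT1, OAS1 and OASL. The reverse, replicate 2 at least 2-fold higher in both groups, was found in 8 genes (0.0805%), none of them a member. Ordered by the size of the replicate difference, the first 20 genes held 6 members, the first 50 held 10 and the first 100 held 15. All 20 had at least 1 FPKM in 3 or 4 libraries, so none had passed the filter through its replicate 1 libraries alone. Taking in low levels, 27 of the 29 members with any signal were higher in replicate 1 in both groups, the others being IRF1 and IFNB1, against 19.5% of the 16114 genes with any signal.

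**Figure D3:**
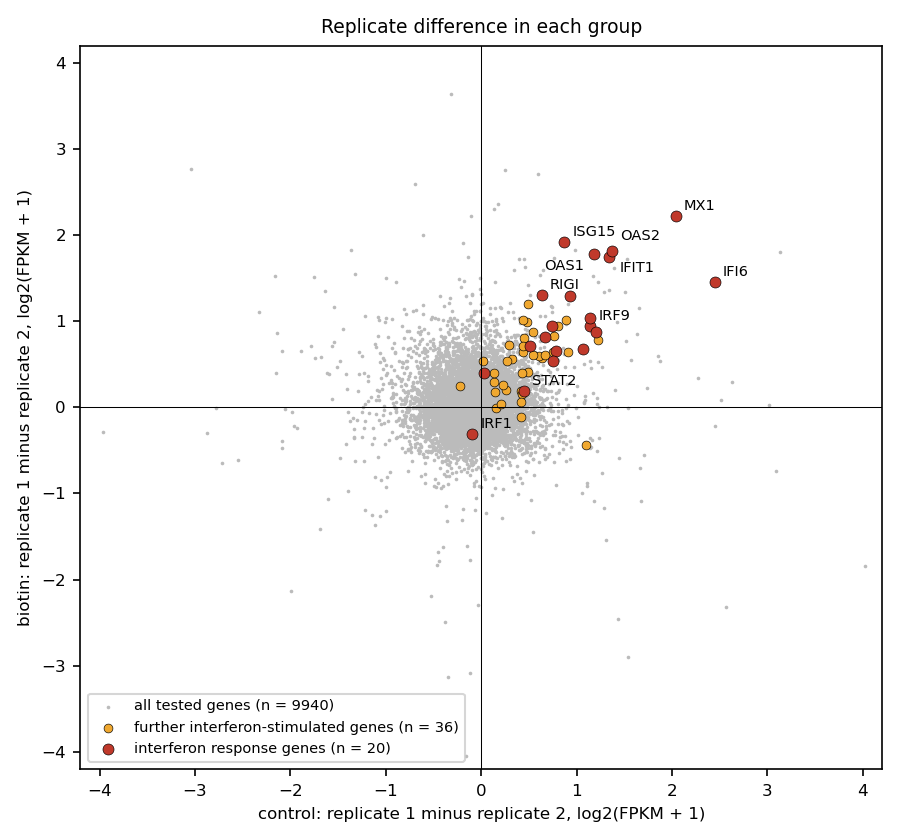
Replicate 1 minus replicate 2 on the log2(FPKM + 1) scale, in the control group (x axis) and the biotin group (y axis), for each tested gene; red points are the 20 interferon response genes, orange the 36 further interferon-stimulated genes and grey all 9940, of which 5 lie outside the axes. The red points lie in the upper right quadrant except IRF1, with MX1 and IFI6 farthest out.

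Upper-quartile and median-of-ratios scaling again gave 19 of 20 genes higher in replicate 1, at medians of 1.02 and 1.03. Other measures that differed by replicate number were the depth given above and the summed FPKM of the epithelial genes, which was lower in replicate 1 (431 against 584 in the control, 412 against 484 in the biotin group). That list holds VIM, a mesenchymal gene that DU-145 cells express, at 173 and 272 without the tag and 124 and 166 with it. VIM leads the sum. The cell adhesion gene CDH1 was at 2.46 and 1.70 without the tag and 2.60 and 1.80 with it, and EPCAM, another, was at 2.91 and 2.64 and at 2.97 and 1.82. Both of these were higher in replicate 1 in each group, opposite to the sum, and were the only 2 of the 11 tested genes to be so (18.2%). Another 6 of the 11, VIM and LAMB3 among them, were higher in replicate 2 in each group (54.5%, against 31.3% of all tested genes). For CDH1 the replicate difference had an unadjusted p of 0.0446 and an adjusted p of 0.907 in limma. LAMB3, higher in replicate 2, also had an unadjusted p below 0.05 in limma. Blood and immune genes summed to 6.10 and 10.6 without the tag and 8.67 and 7.51 with it, with the defining genes PTPRC, CD3E and MS4A1 at 0. Of that list CD14 and CD68 passed the filter. CD14 was higher in replicate 1 of both groups (unadjusted p below 0.05 in limma) and CD68 in replicate 2 of both. CD14 also passed as higher with biotin (adjusted p below 0.05 in limma), as did 13.1% of all tested genes. The part of depth and of these epithelial genes in the replicate difference was not tested.

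Genes outside the list describe how far the pattern reached. Of 56 further interferon-stimulated genes, 36 passed the filter, and 36 of 36 had a replicate difference above 0, as did 44% of all tested genes, with a median of 0.48, from 0.01 (TRIM5) to 1.00 (DHX58). Of these, 21 had an unadjusted p below 0.05 in limma as higher in replicate 1 (58.3%), against 227 of 9940 tested genes (2.28%). An adjusted p below 0.05 was reached by 0. IFITM1, SP110 and HERC6 passed the filter through their replicate 1 libraries alone, so they could be tested only because they were high there. All 3 are counted in the 36, and IFITM1 and SP110 also in the 21. Without a filter, 51 of 55 had a replicate difference above 0, at a median of 0.35. DHX58, the third RIG-I-like receptor, was at 3.79 and 1.05 FPKM without the tag and 3.06 and 1.36 with it. IFITM1, which blocks viral entry, was at 2.29 and 0.780 against 1.52 and 0.248.

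Genes that stand elsewhere in the pathway lay on both sides of 0. Of 18 tested genes of nucleic acid sensing and signalling to interferon, 7 had a replicate difference above 0 (median -0.06). Of 14 tested receptor and JAK-STAT genes it was 6 (median -0.05), with IFNAR1 at 5.18 and 6.16 FPKM without the tag and 5.43 and 4.57 with it. Of 11 antigen presentation genes, whose list also holds the response element core in 9 of 16 promoters, it was 6 (median 0.01). Of 17 NF-kB target genes, the inflammatory set that RNA sensing can also induce, it was 4 (median -0.22), and CXCL8 was at 9.41 and 25.5 without the tag and 9.71 and 10.7 with it. The difference between these lists and the members was not tested.

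Among other genes of the members' own families, 8 of 11 tested had a replicate difference above 0, at a median of 0.05. That list holds DHX58 from above. IRF3, the factor that sensors activate, was at 13.9 and 15.6 FPKM without the tag and 13.1 and 10.5 with it. Of 21 interferon ligand genes besides IFNB1, 17 were at 0 throughout and 1 passed the filter. That gene was IFNE, at 1.10 and 1.19 without the tag and 0.667 and 1.36 with it. IFNL1, a type III interferon, was at 0 in both controls and at 0.907 and 0.365 in the biotin libraries, which was too low for the filter.

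**Figure D4:**
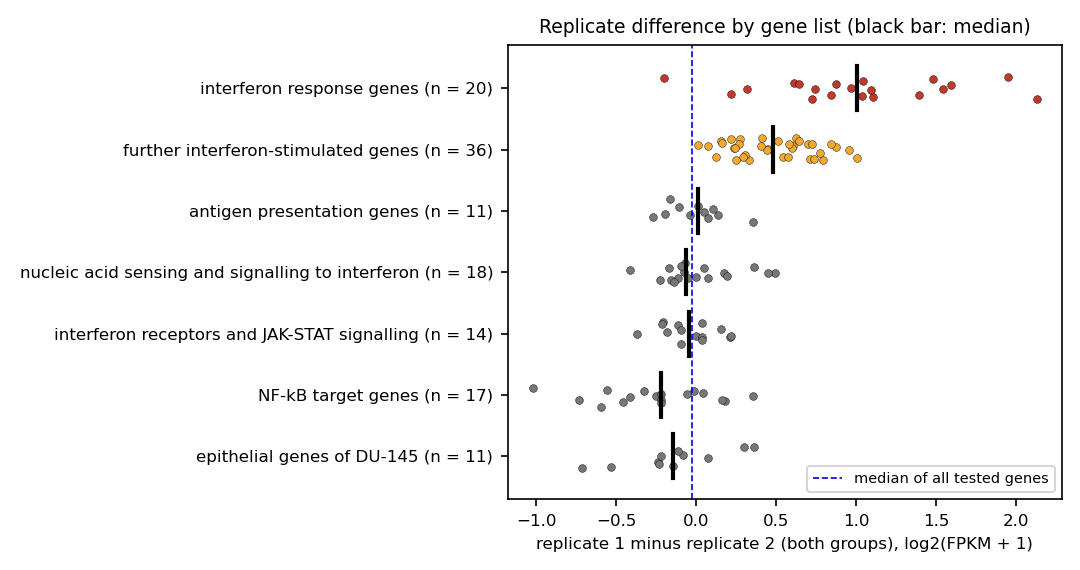
Replicate 1 minus replicate 2 over both groups on the log2(FPKM + 1) scale (x axis) for the tested genes of 7 lists, a point per gene with the list's median as a black bar and the median of all tested genes as a dashed line. All interferon response genes but IRF1, and all further interferon-stimulated genes, lie to the right of the dashed line, with list medians of 1.00 and 0.48, and the other lists straddle it.

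The response element core was also carried by genes outside both interferon lists. Of 8111 tested genes with a promoter entry, 199 held the core (2.45%). Their median replicate difference was 0.01, against -0.03 for those without it. The 175 that held the core and stood in neither interferon list were at -0.02, with 46.9% above 0.

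The comparison of biotin with control pull-outs asks which RNAs came down with the tagged miR-26a. None of the 20 interferon response genes passed in limma, higher or lower, against 1307 of 9940 tested genes higher (13.1%) and 926 lower (9.32%). Upper-quartile scaling changed those counts to 1224 and 1384, and median-of-ratios scaling to 1483 and 757. At an unadjusted p of 0.05 the 20 held 2 genes, against 39.4% of all tested genes, namely IRF9 higher (19.5% of genes) and IRF1 lower (19.8%). None reached a 2-fold difference of both biotin libraries from both controls, against 5.08% of genes higher and 1.21% lower. The median biotin minus control difference of the 20 was -0.28, against -0.06 over all tested genes. The fit behind these counts had no term for the replicate number. With the replicate number as a block, IRF9 and OAS2 were called higher and IFIT1, IFIT5, MX1 and IFI44 lower. The closing section gives these calls beside those of all genes.

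The spread between replicates was wide beside these differences. Groups did not overlap for 1 gene higher with biotin (IRF9, against 29.4% of genes) and for 4 lower (IRF1, IFIT5, ISG20 and IFI44, against 37.7%). Compared within the same replicate number, 12 were lower in both comparisons, which were IRF1, the 4 IFIT genes, OAS1, OASL, MX1, ISG15, USP18, ISG20 and IFI44 (42.9% of all genes). A further 6 were higher in both, namely RIGI, IRF9, STAT2, OAS2, HERC5 and EIF2AK2 (33.8% of all genes). OAS3 and IFI6 differed in sign between the numbers. The median of the 20 was below 0 with all libraries but depended on which were used. It was at 0.18 without control replicate 1, 0.29 without biotin replicate 2, -0.59 without control replicate 2 and -0.61 without biotin replicate 1. Each of these fits had an uneven mix of replicate numbers between the groups, so part of the replicate difference entered its values.

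**Figure D5:**
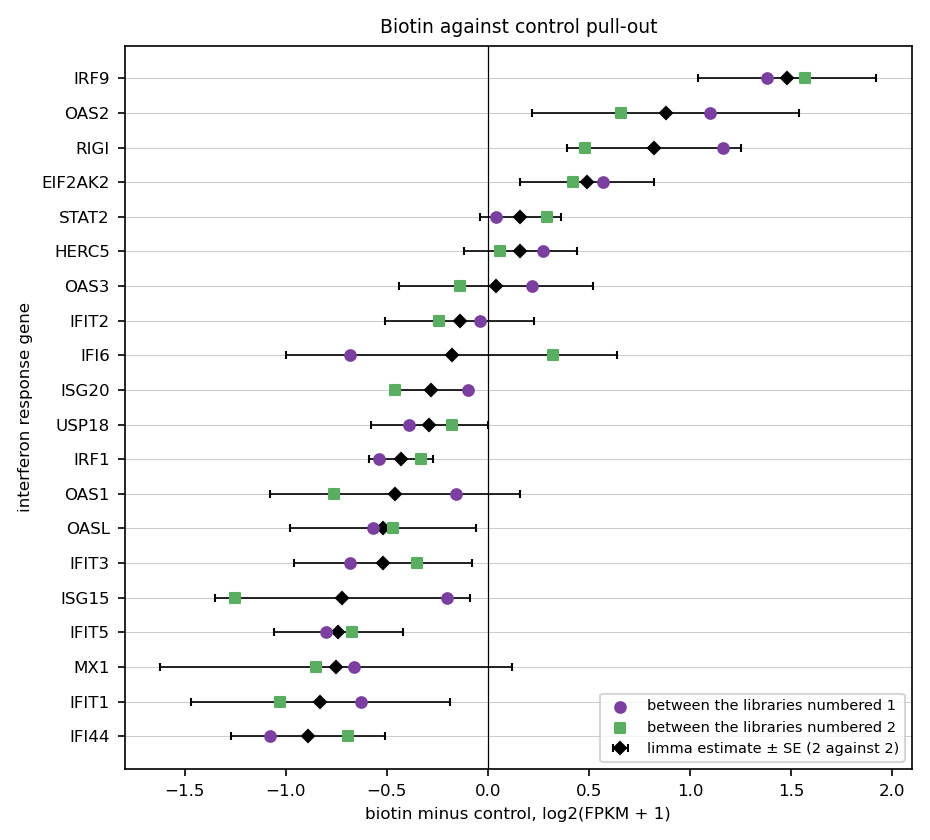
Biotin minus control on the log2(FPKM + 1) scale (x axis) for the 20 tested interferon response genes; black diamonds are limma estimates with SE from 2 libraries against 2, purple circles and green squares the differences between libraries numbered 1 and 2. IRF9 is the highest at 1.48 and IFI44 the lowest at -0.89, and the circle and the square lie on opposite sides of 0 only for OAS3 and IFI6.

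A microRNA pairs with its targets mainly through its seed, so the members were searched for sites that match the seed of miR-26a, the RNA that was transfected. The mature sequence from RefSeq is printed with its seed, nucleotides 2 to 8, in capitals, followed by the stretches of 24 bases around the matching site (capitals) in the 3′ UTR of the 3 members that have it, read from GENCODE 29.
miR-26a-5p: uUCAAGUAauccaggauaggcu
EIF2AK2: ggtttaaatggaTACTTGAagctg
OAS2: tagccttaaagaTACTTGAaggtc
RIGI: gactgtcctttcTACTTGAaagat

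These 3 were the only members of the 31 with the site (9.68%), and all 3 were among the 20 that passed the filter (15%). Of 9452 tested genes with a 3′ UTR, 1140 had it (12.1%). The sites began 1655, 636 and 1019 bases into the 3′ UTR of EIF2AK2, OAS2 and RIGI. All 3 were among the 6 that were higher with biotin in both same-numbered comparisons, at 0.49 ± 0.33, 0.88 ± 0.66 and 0.82 ± 0.43, and none passed (limma, adjusted p = 0.314, 0.363 and 0.212). Over all tested genes, 36% of those with the site and 33.2% of those without were higher in both comparisons. The overlap among members was noticed after their values were seen and is given as a description. IRF9, the tested member with the highest biotin minus control difference, had no such site in its 3′ UTR.

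In 4 of the other lists, those of further interferon-stimulated, receptor and JAK-STAT, sensing and antigen presentation genes, 13 genes passed between biotin and control. In that order they made up 5.56%, 14.3%, 27.8% and 36.4% of the tested genes of each list, against 22.5% of all tested genes. With a library left out in turn, PTPN1 passed in all 4 fits and 8 of the 13 in none. Calls over all tested genes also became fewer in those fits. Of the further interferon-stimulated genes, 2 of 36 rose (5.56%) and 0 fell, against 13.1% and 9.32% of all tested genes. LAMP3, a lysosomal membrane protein, rose from 1.21 and 0.809 FPKM to 6.37 and 3.46 (1.52, limma adjusted p = 0.0125), and SAMHD1, which depletes nucleotides, rose by 0.78 (limma adjusted p = 0.0327). Of 14 receptor and JAK-STAT genes 1 rose and 1 fell (7.14% each). PTPN1, a phosphatase that acts on JAK2 and TYK2, rose from 11.3 and 9.80 to 52.0 and 44.1 (2.08, limma adjusted p = 0.00156), and IFNGR1, the ligand-binding chain of the interferon gamma receptor, fell by 0.99 (limma adjusted p = 0.0229).

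Of 18 sensing and signalling genes, 4 rose (22.2%, against 13.1% of all tested genes) and 1 fell (5.56%, against 9.32%). SOCS1, an inhibitor of JAK kinases, was at 0 and 0.567 FPKM without the tag and 3.65 and 1.79 with it (limma, adjusted p = 0.0211). It passed the filter through its biotin libraries alone, so it could be tested only because it was high there. Its call is nevertheless counted in the 4 that rose here, and in the 13 genes and the 27.8% given above. TICAM1, TRAF3 and RNF135, which pass on signals from TLR3 and RIGI, rose by 0.61, 0.66 and 0.81. TBK1, the kinase that activates IRF3, fell by 0.64 (limma adjusted p = 0.0249). Of 11 antigen presentation genes 0 rose and 4 fell (36.4%), namely B2M, PSME1, ERAP2 and CD74. B2M, the light chain of class I molecules, went from 8.32 and 9.92 to 5.21 and 3.60. Several HLA and peptide-processing genes of that list have copies on alternate sequences and were listed at 0.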

How the data were processed

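RNA from 4 streptavidin pull-outs of DU-145 cells (2 control, 2 biotin) was sequenced by the authors, per the labels' protocols, as TruSeq Stranded Total RNA libraries with single reads of 50 bases. The submitters' processing notes name Cufflinks 2.1.1, Cuffdiff, TopHat2 2.0.9, FastQC 0.10.1, cutadapt and the build hg38, without settings. Each library has a deposited Cufflinks table, and per the file headers its values are FPKM per transcript. The deposited coverage, a signal per transcript, served only to estimate depth. The RNA input is 15 µg in the series design and the same figure in mg in the extract protocol.

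Of 46699 accessions 98.7% were named from RefSeq or, failing that, GENCODE 29. FPKM was summed per gene with pandas 2.3.3 in Python 3.11.15, alternate sequences included. The 22 genes with a failed or excess-data row, none of them a member, and short structured RNAs were left out. Differences were fitted with limma 3.58.1 in R 4.3.3 (variance trend) on log2(FPKM + 1), which understates changes of low genes, for the 9940 genes with at least 1 FPKM in at least 2 libraries. Biotin was compared with control (2 residual degrees of freedom plus a prior of 4.2) and replicate 1 with replicate 2 with the group as a term. Tests were 2-sided with Benjamini-Hochberg adjustment over all tested genes, at 0.05. The script was tested on simulated data.

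The members and lists were chosen with earlier results of these data known. All 31 members are described. From other lists the rule took genes past the threshold for biotin, up to the 4 largest, and up to 6 with the largest replicate difference. Not all of these are named. TRIM5, SP110, HERC6, IFNAR1, IRF3, IFNL1, VIM, CDH1, EPCAM and the markers at 0 were named after their values were seen. Promoter and microRNA sequences are from RefSeq (GRCh38.p14). As alternatives, the pseudocount was set to 0.1 or 5, the filter was dropped or set to a mean of at least 5 FPKM, and further fits used upper-quartile and median-of-ratios scaling, no variance trend, the highest transcript, the replicate number as a block or no group term, each library left out and, added after the data were seen, alternate sequences left out.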

Additional observations from a re-analysis of the deposited data

How the results depend on the processing

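With biotin against control, the counts of all genes higher and lower were 653 and 230 without a filter and 423 and 152 with the highest transcript, and with a library left out they ran from 189 to 680 and from 32 to 223. Leaving out a library assumes that the lone library of a group varies like the others. Of interferon response genes 0 passed in these settings, and 1 passed at a mean of at least 5 FPKM (IRF9, 1.48, limma adjusted p = 0.0353). Their median biotin minus control difference ran from -0.61 to 0.29 with a library left out. In other settings OAS3 turned to -0.05 (upper-quartile scaling), and STAT2 to -0.28 and OASL to 0.03 (highest transcript). With a library left out 13 members changed sign in at least 1 fit, none of them called in those fits. Their biotin minus control values ran from -1.70 to 0.04 (IFIT1), -0.61 to 0.33 (IFIT2), -1.12 to 0.08 (IFIT3), -1.35 to 0.43 (OAS1), -0.03 to 1.79 (OAS2), -0.61 to 0.68 (OAS3), -1.09 to 0.05 (OASL), -1.86 to 0.36 (MX1), -1.68 to 0.24 (ISG15), -0.66 to 0.09 (USP18), -0.19 to 0.52 (HERC5), -0.06 to 0.39 (STAT2) and -1.40 to 1.04 (IFI6). Each fit with a library left out had an uneven mix of replicate numbers between the groups, so part of the replicate difference entered its values. The cause of the replicate difference itself was not tested.

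The replicate numbers are shared in the labels with no stated common culture, and same-numbered libraries deviated together at r = 0.002 across all 9940 tested genes and 0.727 across the 20 members (across genes, which are not independent). With the replicate number as a replicate block, 1078 genes were higher and 534 lower with biotin. Among the members 2 were then called higher, IRF9 (1.48, limma adjusted p = 0.0124) and OAS2 (0.88, 0.0377), and 4 lower, IFIT1 (-0.83, 0.048), IFIT5 (-0.74, 0.036), MX1 (-0.75, 0.0455) and IFI44 (-0.89, 0.0365). Of these 6, IFIT1, OAS2 and MX1 are among the members that changed sign when a library was left out. Those fits had no block and an uneven mix of replicate numbers between the groups, so they cannot decide on the block calls. Between libraries of the same number, biotin minus control was -0.63 and -1.03 for IFIT1, 1.10 and 0.66 for OAS2, and -0.66 and -0.85 for MX1.

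In replicate 1 against replicate 2 every one of the 20 members kept its sign in all settings run. The median of the members moved from 1.00 to 1.17 and 0.61 with pseudocounts of 0.1 and 5, to 0.74 without a filter, to 1.07 at a mean of at least 5 FPKM, and to 0.90 and 0.94 with a library left out, where no test is possible. Without the group term 10 members and 85 genes had an unadjusted p below 0.05. Depth limits the 11 members below the filter.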
